A study of Homo sapiens with 12 samples.

Results

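ARL2BP, ITM2C, ATP23 and AKTIP were among the genes whose RNA was most raised when UBE4B and LSD1 were knocked down together in HEK293T cells. The 4 were followed as single genes across all 4 shRNA groups. They were chosen for their changes on these same arrays, so their values below are a description, and calls on them are given as counts that support nothing. The rule took every row of the array annotated with a member symbol, which gave 5 rows for the 4 genes, of 18395 genes measured in all. Each gene was represented by its brightest row. ARL2BP alone had a further row.

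HEK293T is a line from human embryonic kidney in which the T antigen of SV40, which binds p53, is expressed. RNA was profiled on Affymetrix Human Gene 1.0 ST arrays, 12 in total, 3 in each group. The groups were shRNA plasmids against UBE4B and LSD1 together (shUBE4B+shLSD1, the double knockdown), against UBE4B alone (shUBE4B), against LSD1 alone (shLSD1), and a nontargeting plasmid (shCTRL), all harvested 78 h after knockdown began. The methods state that cells of every group also received a misfolding SOD1 mutant, which the sample labels do not name, and that plasmids entered by transient transfection, which need not reach every cell. UBE4B is a ubiquitin chain elongation factor, and LSD1, encoded by KDM1A, removes methyl groups from histone H3 and from p53. Arrays of a group are biological replicates by their labels, which say no more of their source. Every p-value thus sets a difference against the spread between these samples only.

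The arrays were alike, with median log2 signals between 7.00 and 7.06 and correlations between arrays of 0.9901 to 0.9978. UBE4B averaged 8.93 ± 0.18 in shUBE4B+shLSD1 and 8.95 ± 0.10 in shUBE4B cells, against 10.42 ± 0.04 in shLSD1 and 10.35 ± 0.06 in shCTRL cells (log2 signal, SD, n = 3 each). KDM1A averaged 9.78 ± 0.17 in shUBE4B+shLSD1 and 9.64 ± 0.19 in shLSD1 cells, against 10.95 ± 0.03 in shUBE4B and 10.90 ± 0.06 in shCTRL cells. Both targets were thus low on the arrays labelled with their shRNA. The signal of 6 markers known from HEK293 cells (PAX2, LHX1, VIM, CDH2, NEFM and INA) was summed. The log2 of the summed signal was 12.43 to 12.56 in shUBE4B+shLSD1, 12.55 to 12.57 in shUBE4B and 12.57 to 12.58 in shLSD1 cells. In shCTRL cells it was 12.59 to 12.71. VIM, CDH2 and INA, at 11.27, 10.66 and 10.78 in shCTRL cells, made up most of this sum. PAX2 and LHX1, at 7.16 and 7.34, added little. The same sum over 7 markers of colon epithelium, the origin of another line of the study, was 10.06 to 10.28 over all 12 arrays and overlapped between groups. Among the HEK293 markers INA, a neuronal intermediate filament, was the only one called against shCTRL. It was lower in shUBE4B+shLSD1 (log2 difference from shCTRL −0.35, limma adjusted p = 0.0129) and in shUBE4B cells (−0.30, adjusted p = 0.0245). The median difference of the 6 markers was −0.10 in shUBE4B+shLSD1 and −0.12 in shUBE4B cells. NEFM, a further neuronal filament, averaged 8.08 ± 0.22 in shUBE4B+shLSD1, 7.76 ± 0.13 in shUBE4B and 8.02 ± 0.26 in shCTRL cells. The part of these marker differences in the values below was not tested. In these bulk samples, more RNA per cell and more cells with high RNA cannot be told apart.

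The 4 genes encode proteins with separate known roles. ARL2BP binds the small GTPases ARL2 and ARL3, which load and release lipid-modified cargo, assist tubulin folding and act at mitochondria, and it also holds STAT3 in the nucleus. ITM2C (BRI3) is a membrane protein of the BRI family whose members bind the amyloid precursor protein APP and restrain its cleavage. ATP23 is named after its yeast counterpart, a metalloprotease and assembly factor of the mitochondrial inner membrane, and the human protein was also described as a partner of the Ku70 DNA repair protein, hence its older symbol XRCC6BP1. AKTIP resembles ubiquitin-conjugating enzymes but lacks their catalytic cysteine. It binds Hook and FHIP proteins in the FTS-Hook-FHIP complex, which links cargo to dynein and works with the HOPS tethering complex, and it also binds the kinase AKT1 and takes part in the copying of telomeres.

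Promoter windows of 300 bases (250 before and 50 after the transcription start) were held by the RefSeq table for ITM2C and ATP23, and 2 of them are shown because both genes were highest in the double knockdown. ARL2BP and AKTIP were without an entry. The windows lie on the plus strand of GRCh38.p14, ITM2C at chr2:230864692-230864991 and ATP23 at chr12:57941317-57941616. Capitals mark matches on either strand to a GC box (GGGCGG), an ETS site (CCGGAAG) or a TATA box (TATAAA).
ITM2C: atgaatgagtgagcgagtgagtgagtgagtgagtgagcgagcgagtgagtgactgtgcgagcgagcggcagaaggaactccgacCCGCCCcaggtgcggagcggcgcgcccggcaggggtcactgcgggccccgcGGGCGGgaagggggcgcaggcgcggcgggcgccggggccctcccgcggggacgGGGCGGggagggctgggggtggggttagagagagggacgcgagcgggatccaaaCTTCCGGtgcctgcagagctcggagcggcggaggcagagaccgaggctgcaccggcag
ATP23: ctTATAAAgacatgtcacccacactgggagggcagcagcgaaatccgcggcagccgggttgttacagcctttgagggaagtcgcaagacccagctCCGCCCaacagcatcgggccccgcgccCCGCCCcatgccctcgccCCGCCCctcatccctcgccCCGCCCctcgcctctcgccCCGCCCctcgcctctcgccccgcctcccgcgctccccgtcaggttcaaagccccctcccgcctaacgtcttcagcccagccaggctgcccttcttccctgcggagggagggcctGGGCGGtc
The ITM2C window held 3 GC boxes and 1 ETS site, and the ATP23 window held 6 GC boxes and 1 TATA box far from its start. Of 27305 windows, the first listed for each gene symbol, 44.6% held a GC box, 10.7% an ETS site and 12% a TATA box. GC content was 73.3% in the ITM2C window and 70.7% in the ATP23 window, with a median of 58.3% over these 27305 windows. The same search found no CCAAT box (CCAAT, in 35.7% of windows), E-box (CACGTG, 7.43%), cAMP response element (TGACGTCA, 1.98%), amino acid response element core (TGATGCAA, 0.923%) or p53 half-site (6.54%) in either, which says only that these letters are not in these windows. The table also listed another ITM2C start close to this one with the same matches, and one further upstream. The upstream window held 1 GC box and no ETS site, with a GC content of 60.7%. It was listed first, so it and not the window shown was counted for ITM2C among the 27305.

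ITM2C was high in the double knockdown alone. Its log2 signals were 10.75, 10.76 and 10.83 in shUBE4B+shLSD1 cells, 9.98, 10.12 and 10.14 in shUBE4B cells, 10.08, 10.20 and 10.11 in shLSD1 cells, and 9.82, 10.09 and 10.15 in shCTRL cells. Every double-knockdown array lay above the other 9, whereas the 2 single knockdowns and the control overlapped one another and have no order beyond their spread. The difference from shCTRL was 0.76 ± 0.08 (SE, 1.69-fold) in shUBE4B+shLSD1, 0.06 ± 0.08 in shUBE4B and 0.11 ± 0.08 in shLSD1 cells. Without shCTRL replicate 1, the lowest array, the shUBE4B difference was −0.04. The double knockdown exceeded shUBE4B by 0.70 ± 0.08, which ranked 3 of 18395 genes by size, and shLSD1 by 0.65 ± 0.08.

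ARL2BP was also highest in the double knockdown, with small shifts in the single ones. Its signals were 9.86, 9.90 and 9.90 in shUBE4B+shLSD1 cells, 9.31, 9.30 and 9.22 in shUBE4B cells, 9.52, 9.42 and 9.28 in shLSD1 cells, and 9.10, 9.17 and 9.20 in shCTRL cells. Arrays of shLSD1 and shUBE4B cells overlapped, and the lowest of each, 9.28 and 9.22, lay just above the highest shCTRL array. The difference from shCTRL was 0.73 ± 0.07 (1.66-fold) in shUBE4B+shLSD1, 0.12 ± 0.07 in shUBE4B and 0.25 ± 0.07 in shLSD1 cells. Against the single knockdowns the double was higher by 0.61 ± 0.07 (shUBE4B) and 0.48 ± 0.07 (shLSD1).

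The further ARL2BP row was dim and did not share this pattern. It read 5.49, 5.31 and 5.77 in shUBE4B+shLSD1, 5.53, 5.49 and 5.41 in shUBE4B, 5.49, 5.42 and 5.18 in shLSD1, and 5.40, 4.92 and 5.49 in shCTRL cells, with all groups overlapping. Its double-knockdown difference from shCTRL was 0.25 ± 0.15. With both rows averaged, the excess of the double over shUBE4B was 0.33 and over shLSD1 0.32, and neither passed the test. The gene table lists 10 pseudogenes named after ARL2BP and 3 named after AKTIP, and probes shared with such copies cannot be separated here. Whether the dim row reads ARL2BP itself or such a copy was not tested, which also limits the averaged values.

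ATP23 had the largest change of the 4 in the double knockdown, and a smaller one in shUBE4B cells. Its signals were 9.07, 9.09 and 9.13 in shUBE4B+shLSD1 cells, 8.49, 8.48 and 8.44 in shUBE4B cells, 8.27, 8.40 and 8.11 in shLSD1 cells, and 8.19, 7.96 and 8.23 in shCTRL cells. The double-knockdown arrays stood apart from all others, shUBE4B arrays lay above those of shLSD1 by a narrow margin, and shLSD1 overlapped shCTRL. The difference from shCTRL was 0.97 ± 0.08 (1.96-fold) in shUBE4B+shLSD1, 0.34 ± 0.08 (1.27-fold) in shUBE4B and 0.13 ± 0.08 in shLSD1 cells. By size the double-knockdown change ranked 10 of 18395. The double exceeded shUBE4B by 0.63 ± 0.08 and shLSD1 by 0.84 ± 0.08. The shUBE4B call was lost in 4 of 12 refits that each left out 1 array, those without shUBE4B replicate 1, 2 or 3 or without shCTRL replicate 2 (range 0.26 to 0.40). The call of the double over shUBE4B was lost without shUBE4B replicate 1 (0.64) or 3 (0.62).

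AKTIP was high wherever shUBE4B was given. Its signals were 8.30, 8.18 and 8.38 in shUBE4B+shLSD1 cells, 8.35, 8.37 and 8.30 in shUBE4B cells, 7.74, 7.61 and 7.74 in shLSD1 cells, and 7.64, 7.10 and 7.68 in shCTRL cells. The groups that received shUBE4B overlapped each other and lay above every array of the other two, which also overlapped. The difference from shCTRL was 0.81 ± 0.12 (1.76-fold) in shUBE4B+shLSD1, 0.87 ± 0.12 (1.83-fold) in shUBE4B and 0.22 ± 0.12 in shLSD1 cells. The double differed from shUBE4B by −0.06 ± 0.12 and from shLSD1 by 0.59 ± 0.12, while shUBE4B exceeded shLSD1 by 0.65 ± 0.12. Replicate 2 of shCTRL was the lowest array, and without it the difference from shCTRL was 0.63 in shUBE4B+shLSD1, 0.68 in shUBE4B and 0.04 in shLSD1 cells. The call of the double over shLSD1 was lost without any 1 of the 3 shLSD1 arrays or of shUBE4B+shLSD1 replicates 1 and 3 (range of all refits 0.54 to 0.64).

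**Figure D1:**
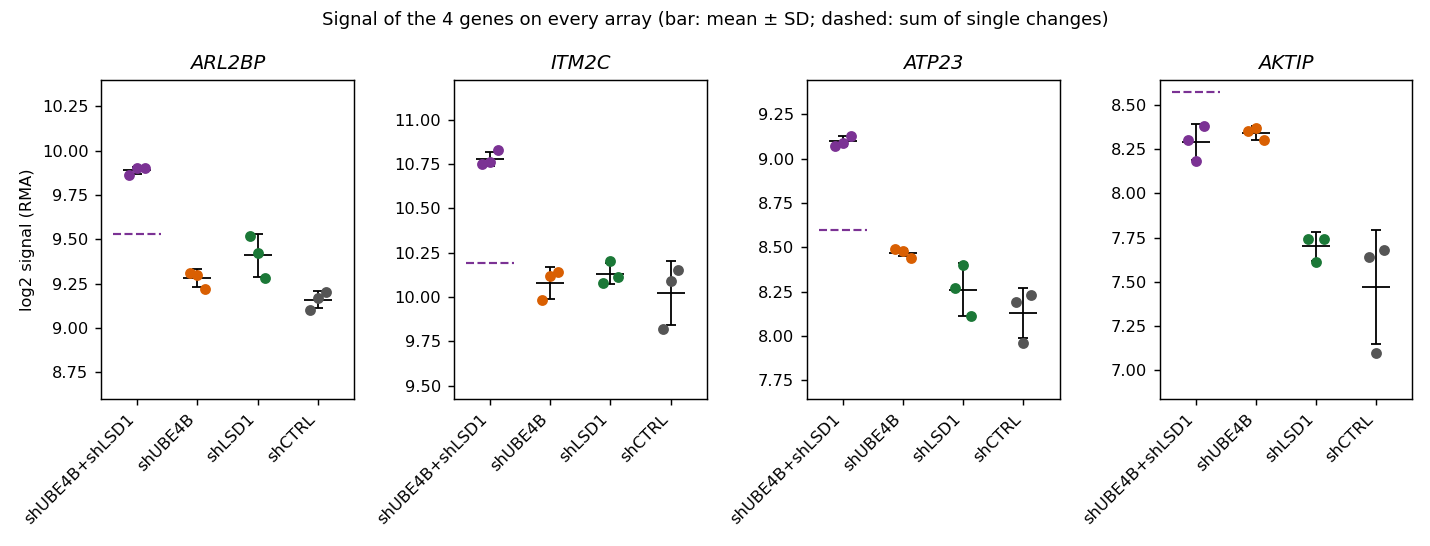
Log2 RMA signal (vertical axis, the same span in each panel) of ARL2BP, ITM2C, ATP23 and AKTIP on each of 12 arrays by shRNA group, with points for arrays, bars for mean ± SD (n = 3) and a dashed line at the level that the sum of the single-knockdown changes would give. Double-knockdown arrays of ARL2BP, ITM2C and ATP23 lie above the line, and those of AKTIP, 8.18 to 8.38, lie below it at 8.57.

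Counts of calls are given beside the share of all genes called, and nothing is read from them for genes chosen in this way. At a limma adjusted p under 0.05, 4 of the 4 genes were higher in shUBE4B+shLSD1 than in shCTRL cells, where 3.75% of all genes were higher and 3.83% lower. In shUBE4B cells 2 (ATP23 and AKTIP) were higher, with 5.6% of all genes higher and 4.47% lower. In shLSD1 cells 0 were called, with 0.506% of all genes higher and 0.315% lower, and 2463 genes at an unadjusted p under 0.05 (eBayes with trend and robust settings called 361 genes). The double exceeded shUBE4B for 3 of the 4 (0.0707% of all genes), and exceeded shLSD1 for all 4 (0.973%). AKTIP was the 1 gene of the 4 higher in shUBE4B than in shLSD1 cells (2.88%). Arrays lay wholly above those of shCTRL for 4 genes in shUBE4B+shLSD1 (10.6% of all genes), 3 in shUBE4B (14.2%) and 1 in shLSD1 cells (8.53%). Double-knockdown arrays lay wholly above those of shUBE4B for 3 genes (11.3%) and above those of shLSD1 for 4 (10.6%).

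Set beside the sum of the single changes, 3 of the genes exceeded it and AKTIP fell short. ITM2C changed by 0.76 in the double against a sum of 0.16, a gap of 0.59 ± 0.12 on the log2 scale. Without shCTRL replicate 1 its sum was −0.04 and its gap 0.69, and over all refits without 1 array the gap ran from 0.53 to 0.69. ATP23 changed by 0.97 against 0.48, a gap of 0.49 ± 0.12, and without shCTRL replicate 2 the sum was 0.32 and the gap 0.58. ARL2BP changed by 0.73 against 0.37, a gap of 0.36 ± 0.09. For AKTIP the double change of 0.81 stood below the sum of 1.09, a gap of −0.28 ± 0.17, and without shCTRL replicate 2 the sum was 0.72 and the gap −0.10. By size these gaps ranked 62 (ITM2C), 183 (ATP23), 931 (ARL2BP) and 2110 (AKTIP) of 18395. No gene passed the test of this gap (0% of all genes, limma adjusted p under 0.05), with 2409 at an unadjusted p under 0.05 and 5 with trend and robust settings.

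On the linear signal the picture had the same signs. ITM2C averaged 1760 in the double against 1159 from adding the single increments, and ATP23 averaged 548.5 against 382.2. ARL2BP averaged 946.6 against 729.9. AKTIP averaged 312.5 against 352, which is a log2 ratio of −0.17.

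**Figure D2:**
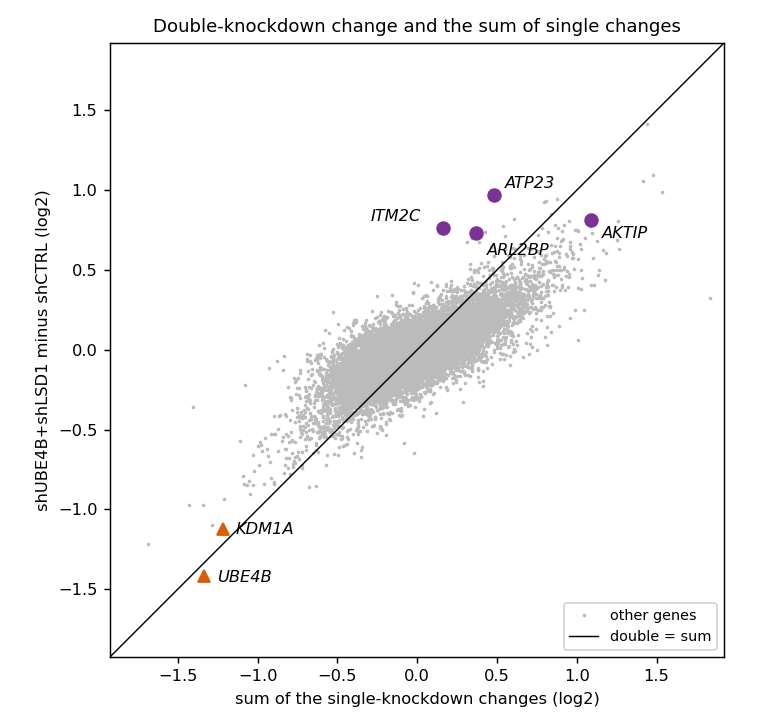
Change of each gene in shUBE4B+shLSD1 cells from shCTRL (vertical axis, log2) against the sum of its changes in shUBE4B and shLSD1 cells (horizontal axis, log2), over 18395 genes in gray, with the 4 genes as circles, the shRNA targets as triangles and a line where both are equal. ITM2C, ATP23 and ARL2BP stand above the line by 0.59, 0.49 and 0.36, and AKTIP stands below it (gap −0.28).

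A total of 11 of the 18395 genes were called higher in the double knockdown than in each of the other 3 groups. Of these, 3 were ITM2C, ATP23 and ARL2BP, which were chosen for their changes on these arrays. The other 8, named after their values were seen, were CERS2, HIPK1, MAGT1, RAPGEF1, SLC7A5, TESK2, TMEM38B and ZDHHC9. Leaving out 1 array at a time gave 5 to 18 such genes, of which 5 to 11 were among these 11. The set fell to 5 without shUBE4B replicate 1, 6 without shUBE4B replicate 3 and 7 without shUBE4B+shLSD1 replicate 3, and it held 18 genes without shCTRL replicate 2. ARL2BP and ITM2C were in it in all 12 refits, and ATP23 in all but those without shUBE4B replicate 1 or 3. ARL2BP left the set when the rows of a gene were averaged, and the methods' t-test with Benjamini-Hochberg adjustment left no gene in it. CERS2, a ceramide synthase, and MAGT1, a magnesium transporter and oligosaccharyltransferase subunit, were also higher in each single knockdown, and their double-knockdown changes stood above the sum by 0.13 ± 0.08 (CERS2) and 0.12 ± 0.09 (MAGT1). ZNF780B, a zinc finger gene, was the 1 gene lower in the double than in every other group (−0.65 ± 0.10 from shCTRL).

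**Figure D3:**
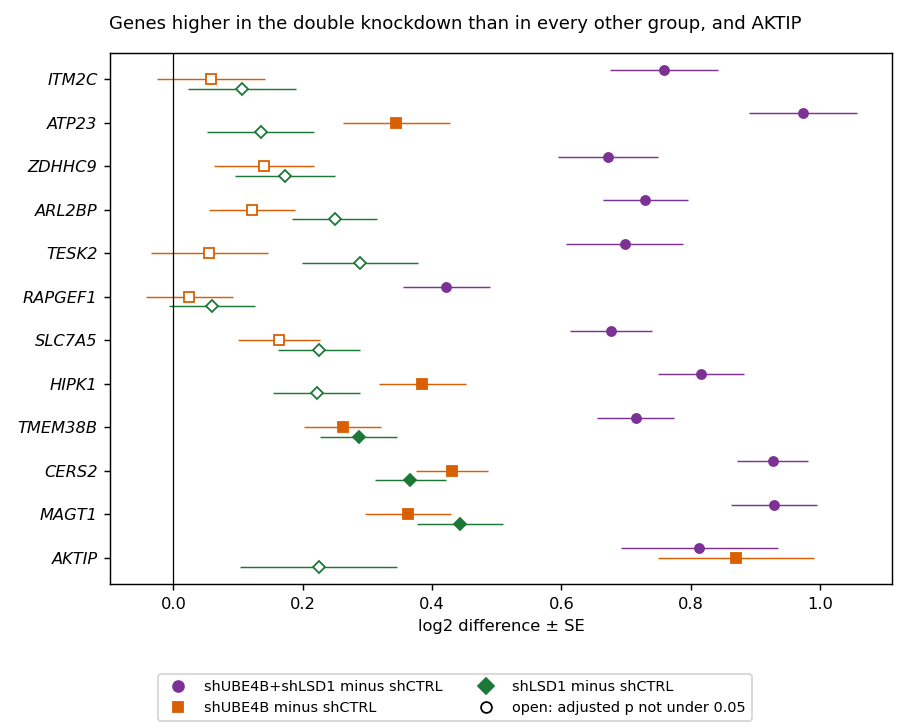
Log2 difference from shCTRL ± SE (horizontal axis) in shUBE4B+shLSD1, shUBE4B and shLSD1 cells for the 11 genes called higher in the double knockdown than in every other group, ordered by their gap from the sum of single changes, with AKTIP last. ITM2C leads with a gap of 0.59, and AKTIP is as high in shUBE4B cells (0.87) as in the double (0.81).

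Across the 12 arrays ARL2BP, ITM2C and ATP23 moved together, with Pearson r of 0.933 (ARL2BP and ITM2C), 0.911 (ARL2BP and ATP23) and 0.896 (ITM2C and ATP23). AKTIP was less like them, with r of 0.742 to ATP23, 0.508 to ARL2BP and 0.467 to ITM2C. These are descriptions over 12 arrays that fall into 4 groups and share those group differences. The genes were chosen for their changes on these arrays, which favours a high r among those high in the same group. ARL2BP was most like SLC7A5 (0.972), the large neutral amino acid transporter, then the deubiquitinase USP42 (0.945) and the palmitoyltransferase ZDHHC9 (0.942). ITM2C was most like FKBP1B (0.959), a prolyl isomerase that binds ryanodine receptors, the sorting nexin SNX12 (0.949) and ZDHHC9 (0.94). ATP23 was most like ZDHHC5 (0.959), a further palmitoyltransferase, the kinase HIPK1 (0.958) and the RNA-binding protein RBM18 (0.949).

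AKTIP was most like RPRD2 (0.977), a regulator of RNA polymerase II, CDADC1 (0.976) and the interferon receptor subunit IFNAR1 (0.967). CDADC1 read 7.94, 7.90 and 7.91 in shUBE4B+shLSD1, 8.08, 8.04 and 7.85 in shUBE4B, 7.59, 7.52 and 7.67 in shLSD1, and 7.50, 7.17 and 7.55 in shCTRL cells. IFNAR1 averaged 9.80 ± 0.11 in shUBE4B+shLSD1, 9.86 ± 0.03 in shUBE4B, 9.54 ± 0.02 in shLSD1 and 9.33 ± 0.27 in shCTRL cells. In AKTIP and all 3 of these genes replicate 2 of shCTRL was the lowest of the 12 arrays.

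Known partners of the 4 genes were listed by role, without the 4 genes themselves, and 89 of 96 were measured. In shUBE4B+shLSD1 cells 6 of the 89 rose and 3 fell, in shUBE4B cells 5 rose and 4 fell, and in shLSD1 cells 1 rose and 1 fell. Called in either direction were 10.1% of the 89 in the double (7.58% of all genes), 10.1% in shUBE4B (10.1% of all genes) and 2.25% in shLSD1 cells (0.821% of all genes). The median difference of the 89 was −0.02 in the double, 0.02 in shUBE4B and 0.01 in shLSD1 cells, where all genes had medians of −0.01, −0.03 and −0.01.

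Of 20 genes of the ARL2 and ARL3 pathway around ARL2BP, 18 were measured and ARL2 was not analysed here. MFN1, a mitofusin that joins outer mitochondrial membranes, rose by 0.59 ± 0.10 in shUBE4B+shLSD1 (adjusted p = 0.00256) and by 0.62 ± 0.10 in shUBE4B cells (adjusted p = 0.00223). STAT3, the transcription factor that ARL2BP binds, averaged 10.40 ± 0.03 in shUBE4B+shLSD1, 10.41 ± 0.04 in shUBE4B and 10.31 ± 0.02 in shLSD1 cells, against 10.14 ± 0.02 in shCTRL cells. It rose by 0.26 ± 0.05 in the double (adjusted p = 0.0095) and by 0.28 ± 0.05 in shUBE4B cells (adjusted p = 0.00743). RP2, which switches ARL3 off, rose in shLSD1 cells alone of the 3 comparisons with shCTRL (0.52 ± 0.07, adjusted p = 0.00856), and it was lower in the double than in shLSD1 cells (−0.48 ± 0.07, adjusted p = 0.00385). Its signals were 7.73, 7.70 and 7.73 in shUBE4B+shLSD1, 7.77, 7.90 and 7.73 in shUBE4B, 8.27, 8.11 and 8.23 in shLSD1, and 7.73, 7.56 and 7.78 in shCTRL cells, with the shLSD1 arrays above all others. The RP2 call in shLSD1 cells was lost without shLSD1 replicate 1 (0.48) or 3 (0.50). PDE6D, which carries prenylated proteins until ARL2 or ARL3 releases them, rose by 0.39 ± 0.11 in the double (adjusted p = 0.0388), a call lost in 9 of 12 refits without 1 array (all but those without shCTRL replicate 3 or shLSD1 replicate 1 or 2) and at 0.25 without shCTRL replicate 2. ARL3 had differences of −0.06, −0.01 and −0.21 in the 3 knockdowns in this order and passed no test. UNC119, a carrier of myristoylated cargo named after its value was seen, fell by 0.22 in shUBE4B cells (adjusted p = 0.0424), a call lost in 11 of 12 such refits, all but the one without shCTRL replicate 3.

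Of 21 genes of the BRI family and amyloid precursor processing, 20 were measured. Of 5 measured subunits of the gamma-secretase that cuts APP, 2 rose in the double and in shUBE4B cells, NCSTN and PSEN2. The other subunits did not pass the test, with differences of −0.09 (APH1A), −0.14 (APH1B) and −0.13 (PSENEN) in the double and −0.07, 0.20 and −0.10 in shUBE4B cells. NCSTN averaged 10.51 ± 0.02 in shUBE4B+shLSD1, 10.41 ± 0.06 in shUBE4B and 10.36 ± 0.03 in shLSD1 cells, against 10.12 ± 0.04 in shCTRL cells, and differed from shCTRL by 0.39 ± 0.06 in the double (adjusted p = 0.0011) and 0.30 ± 0.06 in shUBE4B cells (adjusted p = 0.00662). PSEN2 rose by 0.39 ± 0.07 in the double (adjusted p = 0.00325) and by 0.29 ± 0.07 in shUBE4B cells (adjusted p = 0.0162), the second call being lost without shUBE4B replicate 1 (0.28) or 3 (0.29). APLP2, a relative of APP, fell by 0.47 in the double (SE 0.06, adjusted p = 0.000526) and by 0.33 in shLSD1 cells (SE 0.06, adjusted p = 0.0326), the shLSD1 call being lost in 8 of 12 refits, all but those without a double-knockdown array or without shCTRL replicate 2. APP fell by 0.20 in shUBE4B cells (SE 0.05, adjusted p = 0.0343), lost without any shUBE4B array, shCTRL replicate 1 or 3, or shLSD1 replicate 2. The other BRI genes did not pass the test. ITM2A differed from shCTRL by 0.21, 0.11 and 0.09 and ITM2B by 0.09, 0.12 and −0.01 in shUBE4B+shLSD1, shUBE4B and shLSD1 cells. ITM2A was dim, averaging 5.46 in shUBE4B+shLSD1 and 5.25 in shCTRL cells, below the array medians.

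For ATP23, 22 of 24 mitochondrial protease and inner membrane assembly genes were measured, and 1 was called in the double and in shUBE4B cells (4.55% of the list, with 7.58% and 10.1% of all genes). With trend and robust settings 5 of them were called in the double and 1 in shUBE4B cells. ATPAF1, which assembles the F1 part of ATP synthase, read 9.39, 9.17 and 9.38 in shUBE4B+shLSD1, 9.34, 9.57 and 9.42 in shUBE4B, 8.99, 9.15 and 9.11 in shLSD1, and 8.77, 8.71 and 8.97 in shCTRL cells. It rose by 0.50 ± 0.09 in the double (adjusted p = 0.00452) and by 0.63 ± 0.09 in shUBE4B cells (adjusted p = 0.00129), and shUBE4B exceeded shLSD1 by 0.36 ± 0.09 (adjusted p = 0.0318). PRELID1 and TRIAP1, which shuttle lipid between the mitochondrial membranes, had differences from shCTRL of −0.16 and 0.04 in the double, with no test passed. All 8 end-joining genes were measured and 0 were called by limma in any comparison with shCTRL, with or without trend and robust settings, and 0 in the double, 1 in shUBE4B and 1 in shLSD1 cells had an unadjusted p under 0.05. Among them XRCC6, which encodes Ku70, differed by −0.10 ± 0.06 in the double.

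For AKTIP, 12 of 13 genes of the FTS-Hook-FHIP and HOPS complexes were measured, as were 3 of 4 AKT kinases and PDK1 and all 6 shelterin genes. VPS39, a HOPS subunit, fell by 0.26 in the double (SE 0.06, adjusted p = 0.0262) and by 0.28 in shUBE4B cells (SE 0.06, adjusted p = 0.016). The first call was lost without shCTRL replicate 1 or 3 or shUBE4B+shLSD1 replicate 1 or 3 (−0.31 to −0.21 over all refits) and the second without shUBE4B replicate 3 (−0.26). ACD, the shelterin subunit TPP1, averaged 8.53 ± 0.03 in shUBE4B+shLSD1 and 8.64 ± 0.14 in shUBE4B cells, against 8.87 ± 0.14 in shLSD1 and 9.03 ± 0.15 in shCTRL cells. It fell by 0.49 in the double (SE 0.09, adjusted p = 0.00624). In shUBE4B cells it fell by 0.38 (SE 0.09, adjusted p = 0.0229), lost without shCTRL replicate 1 (−0.32) or shUBE4B replicate 2 (−0.34) or 3 (−0.35). The direct partners of AKTIP did not pass the test against shCTRL. HOOK1, HOOK2 and HOOK3 differed by −0.14, −0.20 and 0.01 in the double, and FHIP1A, FHIP1B, FHIP2A and FHIP2B by 0.00, 0.08, −0.26 and −0.02. HOOK1 was lower in the double than in shLSD1 cells (−0.49 ± 0.10, adjusted p = 0.0192) and lower in shUBE4B than in shLSD1 cells (−0.49 ± 0.10, adjusted p = 0.0131). It averaged 8.95 ± 0.08 in shUBE4B+shLSD1, 8.95 ± 0.05 in shUBE4B, 9.44 ± 0.11 in shLSD1 and 9.09 ± 0.22 in shCTRL cells. Every shLSD1 array lay above those of shCTRL, so much of both gaps came from the high shLSD1 level.

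**Figure D4:**
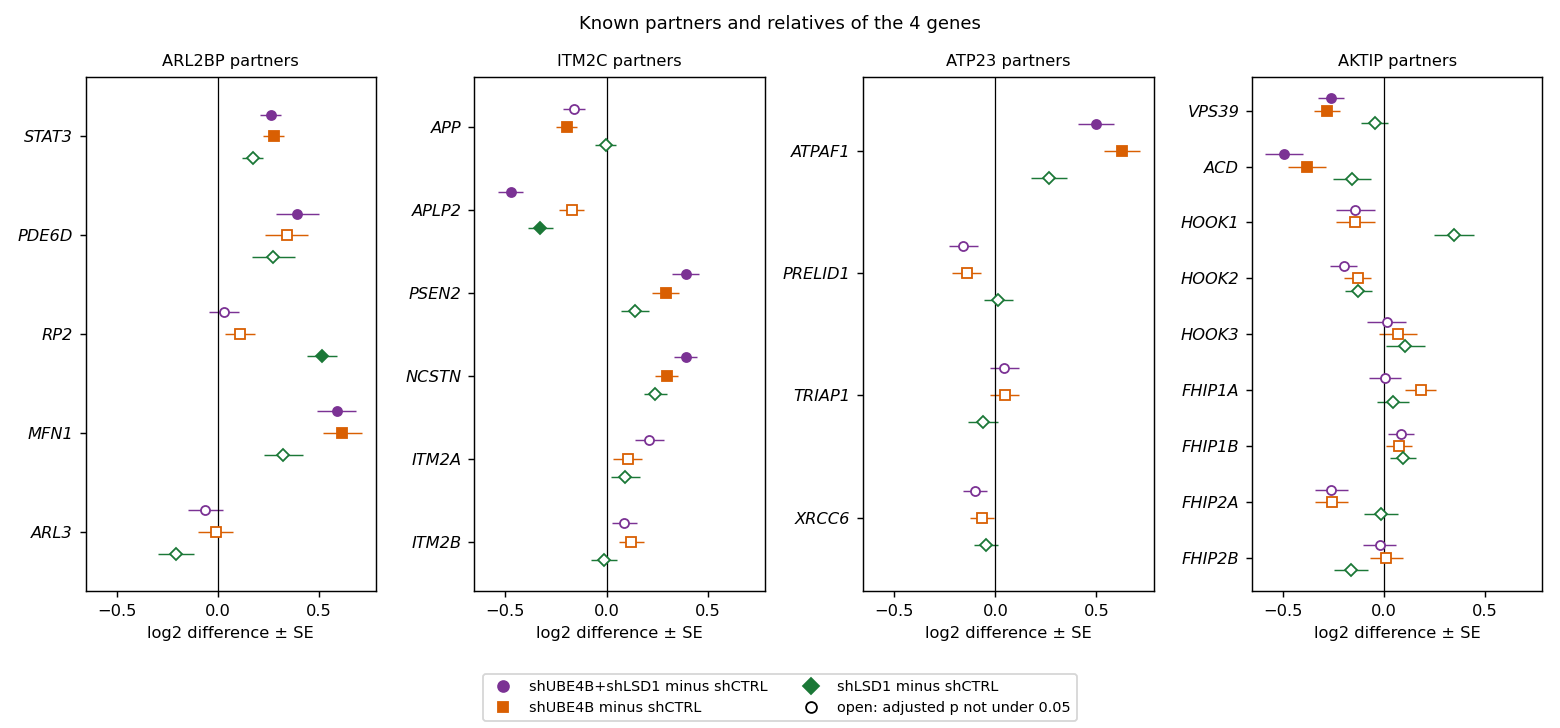
Log2 difference from shCTRL ± SE (horizontal axis) of named partners and relatives of ARL2BP, ITM2C, ATP23 and AKTIP in shUBE4B+shLSD1, shUBE4B and shLSD1 cells, with filled symbols where the limma adjusted p was under 0.05. MFN1 (0.59) and ATPAF1 (0.50) have the largest rises in the double, and ACD (−0.49) and APLP2 (−0.47) the largest falls.

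The nearest measured protein-coding genes, 3 on each side of each member by the order of a reference gene table, numbered 24. Of these, 1 was called in the double (4.17%, with 7.58% of all genes) and 4 in shUBE4B cells (16.7%, with 10.1% of all genes). In shLSD1 cells limma called 0 of them, with 5 at an unadjusted p under 0.05 and 1 called with trend and robust settings. RSPRY1, next to ARL2BP on chromosome 16, fell by 0.28 in the double (SE 0.08, adjusted p = 0.0448), opposite in sign to ARL2BP, and this call was lost in 9 of 12 refits, all but those without shCTRL replicate 2, shUBE4B replicate 3 or shLSD1 replicate 1. On chromosome 2, SPATA3, near ITM2C, fell by 0.32 in shUBE4B cells (SE 0.09, adjusted p = 0.0308). This call was lost without any shUBE4B array or without shCTRL replicate 1 or 2 (−0.42 to −0.23 over all refits). SPATA3 was dim, averaging 5.82 in shUBE4B and 6.14 in shCTRL cells, below the array medians. On chromosome 12, SLC16A7, a monocarboxylate transporter gene near ATP23, rose by 0.40 ± 0.08 in shUBE4B cells (adjusted p = 0.00826) and kept its call in all 12.

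Both direct neighbours of AKTIP on chromosome 16 rose in shUBE4B cells, each by less than AKTIP. RBL2, which encodes the retinoblastoma relative p130, rose by 0.37 ± 0.10 (adjusted p = 0.0372) and RPGRIP1L, a gene of the ciliary transition zone, by 0.26 ± 0.08 (adjusted p = 0.0492). RBL2 read 9.34, 9.24 and 9.49 in shUBE4B+shLSD1, 9.31, 9.46 and 9.45 in shUBE4B, 9.07, 9.20 and 9.24 in shLSD1, and 9.06, 8.82 and 9.24 in shCTRL cells, where replicate 2 was again the lowest array. Without that array the differences of RBL2 and RPGRIP1L were 0.26 and 0.17, and neither was called. The RBL2 call was also lost without any shUBE4B array, shCTRL replicate 1 or shLSD1 replicate 2, and the RPGRIP1L call was kept only without shCTRL replicate 1 or 3.

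**Figure D5:**
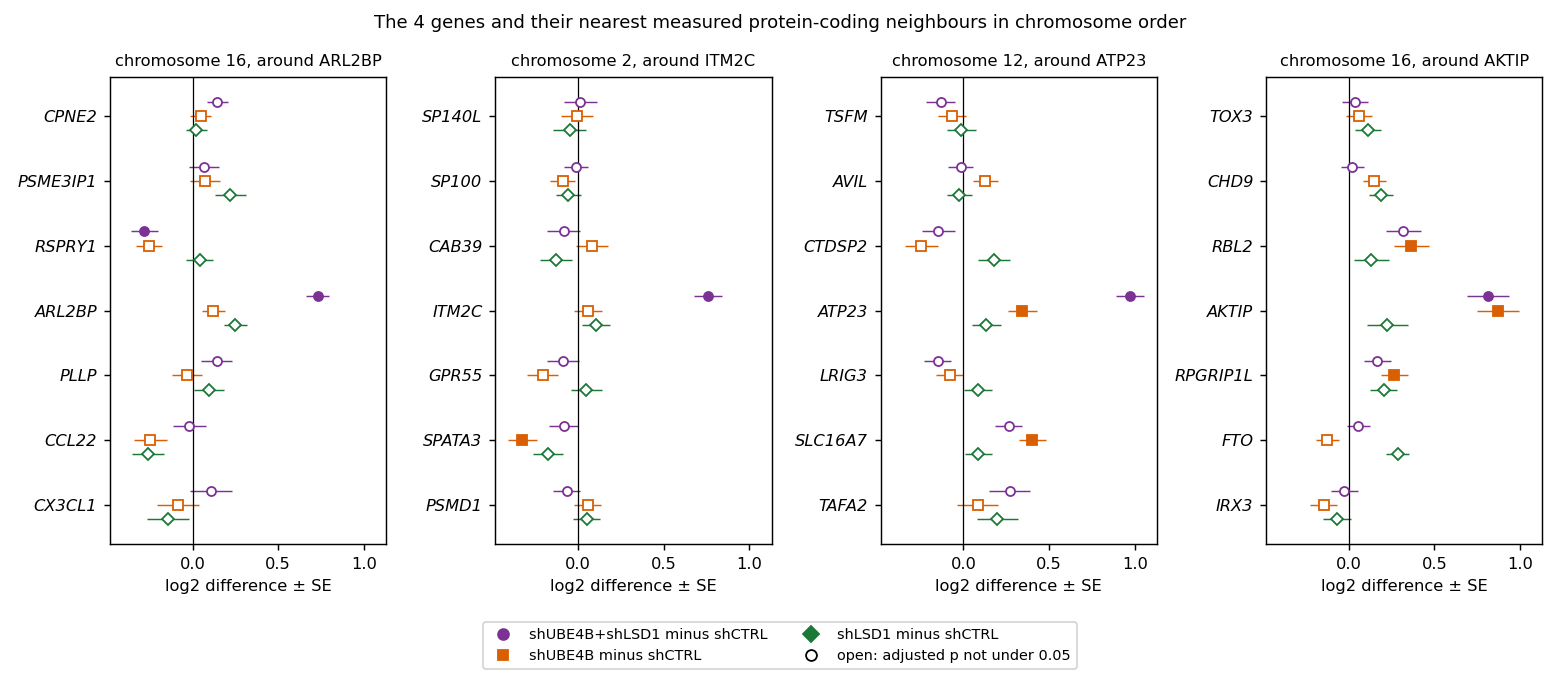
Log2 difference from shCTRL ± SE (horizontal axis) of the 4 genes and their 3 nearest measured protein-coding genes on either side, in chromosome order, in shUBE4B+shLSD1, shUBE4B and shLSD1 cells, with filled symbols where the limma adjusted p was under 0.05. In the double knockdown all 4 genes lie right of their neighbours, which their choice for changes on these arrays made likely. There ATP23 is at 0.97 and its flanking genes are between −0.15 (LRIG3) and 0.27 (TAFA2).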

How the data were processed

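RNA of HEK293T cells was hybridized by the authors to 12 Affymetrix Human Gene 1.0 ST arrays. The deposited values are log2 signals, made by the authors with RMA in Partek (quantile-normalized after background correction, 1 value per transcript cluster) with annotation on hg19. Their versions are not given in the sources used here. RMA pulls array distributions together, so a shift shared by most genes would not be seen.

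Of 33297 rows, 21214 had a gene annotation. The 19460 rows with 1 symbol gave 18395 genes, after 27 rows had their symbol updated from a RefSeq gene table. A gene's brightest row was used, and rows with several symbols (1754) or none (12083) were left out. limma 3.58.1 in R 4.3.3 fitted 4 group means per gene (lmFit, eBayes, 8 residual and 5.13 prior degrees of freedom), with Benjamini-Hochberg adjustment over all 18395 genes. A gene was called at an adjusted p under 0.05. Exact permutation of 3 arrays against 3 could not go below a two-sided p of 0.1, so it was not used. The fit was tested on simulated data.

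The 4 genes, the lists, tests and motifs were chosen with earlier results of these data known. Named genes were the 4 members with all rows, the shRNA targets, up to 4 list genes with the largest change past the test, fixed relatives and direct partners whatever their values, neighbours past the test, and the 3 genes most correlated with each member. Alternatives left out each array in turn, left out the 40% dimmest genes, kept all rows, averaged a gene's rows, centred arrays on the median or quantile-normalized them again, weighted arrays, blocked on the replicate number, used only the 6 arrays compared, turned on the trend and robust options of eBayes, applied the methods' t-test, or took the sum on the linear signal. Promoters were searched with Python 3.11.15 and pandas 2.3.3, and figures drawn with matplotlib 3.10.9. Array number limits the precision.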

Additional observations from a re-analysis of the deposited data

How the results depend on the processing

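No called difference changed sign. Among 612 refits of the 4 genes' values, 581 kept direction and side of the threshold. ITM2C, not called in either, turned without 1 array in shUBE4B against shCTRL cells (−0.04 to 0.12 over these refits) and in shUBE4B against shLSD1 cells (−0.08 to 0.00). Uncalled differences of other genes that turned were RP2 (−0.04 to 0.08) and SPATA3 (−0.18 to 0.01) in the double, RP2 also with array weights (0.00), and APP (−0.02 to 0.01) and RSPRY1 (0.00 to 0.09) in shLSD1 cells. ARL2BP in shLSD1 cells (0.25) passed the test without the 40% dimmest genes. With the mean of all rows of a gene, the ARL2BP excess of the double was 0.33 over shUBE4B and 0.32 over shLSD1, neither called. Under the methods' t-test with Benjamini-Hochberg adjustment, calls were lost at unchanged differences for the double over shCTRL (ITM2C 0.76, ATP23 0.97, AKTIP 0.81), shUBE4B over shCTRL (ATP23 0.34, AKTIP 0.87), the double over shUBE4B (ARL2BP 0.61, ITM2C 0.70, ATP23 0.63) and over shLSD1 (ARL2BP 0.48, ITM2C 0.65, ATP23 0.84, AKTIP 0.59). ATP23 in shUBE4B cells (0.34) was also lost with limma on the 6 arrays alone, and AKTIP of the double over shLSD1 (0.59) over all rows. The AKTIP gap was −0.17 on the linear signal. The cause was not tested. Leaving out 1 array gave 0.26 to 0.40 for ATP23 in shUBE4B cells, 0.61 to 0.64 for ATP23 of the double over shUBE4B, and 0.54 to 0.64 for AKTIP of the double over shLSD1.

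Counts of all genes called moved more. Those given for the methods' t-test use Benjamini-Hochberg adjustment, which the methods do not mention, so they are not the authors' own counts. For the double against shCTRL (1394), limma on 6 arrays gave 420, the methods' t-test 48, and leaving out 1 array 861 to 1548. For shUBE4B (1853) these were 692, 46 and 910 to 2329. For shLSD1 (151), trend and robust settings gave 361, 6 arrays 2, the replicate block 236, array weights 233, removal of dim genes 362, all rows 58, the methods' t-test 1, and leaving out 1 array 15 to 198. For the double over shUBE4B (27), trend and robust gave 86, array weights 125, removal of dim genes 89, the methods' t-test 1 and leaving out 1 array 8 to 135. For the double against shLSD1 (511) these were 780, 897, 799, 9 and 158 to 806. For shUBE4B against shLSD1 (1005), 6 arrays gave 1772, array weights 2548, the methods' t-test 662 and leaving out 1 array 395 to 1661. The gap from the sum (0) was called for 5 genes with trend and robust settings, 1 with the replicate block and 1 without dim genes. The 11 genes higher in the double than in each other group became 23 with trend and robust settings, 20 with array weights, 23 without dim genes, 7 with 6 arrays and 0 by the methods' t-test, a recount chosen after seeing the data.

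Of the 89 partner genes, 9 were called in the double, against 18 with trend and robust settings, 20 without dim genes and 0 by the methods' t-test. In shUBE4B cells 9 were called, against 2 with 6 arrays, 14 without dim genes, 0 by the methods' t-test and 4 to 12 without 1 array. In shLSD1 cells 2 were called, against 0 with 6 arrays, 1 over all rows, 0 by the methods' t-test and 0 to 2 without 1 array. Shared replicate numbers were not taken to pair the samples, since the labels give no shared source for them. Even so, 10 of 18 same-number correlations of the deviations from group means were over 0.1 (−0.08 to 0.33). Whether equal numbers shared a culture or batch was not tested, and the main fit did not model it. The replicate block changed no call of the 4 genes. With it RSPRY1 in the double (−0.28) and RPGRIP1L in shUBE4B cells (0.26) lost their calls.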
